A study of Mus musculus with 12 samples.

Results

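Hippocampal RNA of 5xFAD;eIF2α+/S51A mice was compared with that of 5xFAD mice, to ask what the eIF2αS51A allele does to gene expression in animals that carry AD transgenes. The genotype labels gave 3 mice for each side, so the comparison rests on 6 of the 12 arrays of the series, with 1 Affymetrix Mouse Exon 1.0 ST array per mouse and age 14 to 15 months throughout. The other 6 arrays, from 3 eIF2α+/S51A and 3 wild-type mice, served to estimate the spread between mice and to measure the same allele without the transgenes. Each array gave log2 signals of exon probe sets, which were summarized to a log2 signal per gene.

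Both groups compared were hemizygous for the 5xFAD transgenes, in which Thy1 sequences drive mutant human proteins of familial AD in neurons. In 5xFAD;eIF2α+/S51A mice a single copy of Eif2s1, the gene of eIF2α, carried alanine in place of serine 51, and the other copy was wild-type. In 5xFAD mice both copies were wild-type. Transgenic parents had a mixed B6/SJL background and knock-in parents a C57BL/6J background, so the strain make-up could differ from mouse to mouse, and it was not measured here. The sex of the mice is not in the labels. Xist, the RNA that coats the inactive X chromosome of females, was high in a single array of every genotype.

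eIF2 carries the initiator tRNA to the ribosome. Its α subunit is phosphorylated at serine 51 by the kinases PERK, GCN2, PKR and HRI, which lowers general protein synthesis and favours the translation of a few mRNAs, among them that of the transcription factor ATF4. ATF4 switches on genes of amino acid synthesis, amino acid import and tRNA charging, a programme known as the integrated stress response. In the hippocampus this phosphorylation is known for restraining those forms of memory and synaptic plasticity that need newly made protein.

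No gene separated 5xFAD;eIF2α+/S51A from 5xFAD mice at the thresholds of the study's methods, which ask for more than a 1.6-fold difference and for p below 0.02 after Benjamini-Hochberg adjustment. Of 18101 genes tested with limma, 0 were called (0%), and the smallest adjusted p was 0.2294. At an unadjusted p under 0.05, 269 genes were higher (1.49%) and 179 were lower (0.989%) in 5xFAD;eIF2α+/S51A mice, 448 in all (2.48%). A simpler count asked for how many genes the 3 mice of each group did not overlap at all. Every 5xFAD;eIF2α+/S51A mouse lay above every 5xFAD mouse for 504 genes (2.78%) and below every 5xFAD mouse for 843 genes (4.66%), 1347 in all (7.44%). An exact test of 3 against 3 mice cannot give a p below 0.1, so this count carries no p of its own. The median log2 difference over all genes was -0.02.

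The arrays did limit how large a change of most single genes could be. The median standard error of a log2 difference was 0.11, and the median 95% interval reached 0.25 to each side, which is 1.19-fold. For 17382 genes (96.0%) the whole interval lay within 1.6-fold in either direction, and for 99.3% it lay within 2-fold. There remained 719 genes whose interval reached beyond 1.6-fold, and 132 whose interval reached beyond 2-fold. The estimate itself was beyond 1.6-fold for 20 genes, 11 of them higher and 9 lower in 5xFAD;eIF2α+/S51A mice. Genes with a mean below the background level, and genes without a usable probe set, are not covered by these limits.

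**Figure D1:**
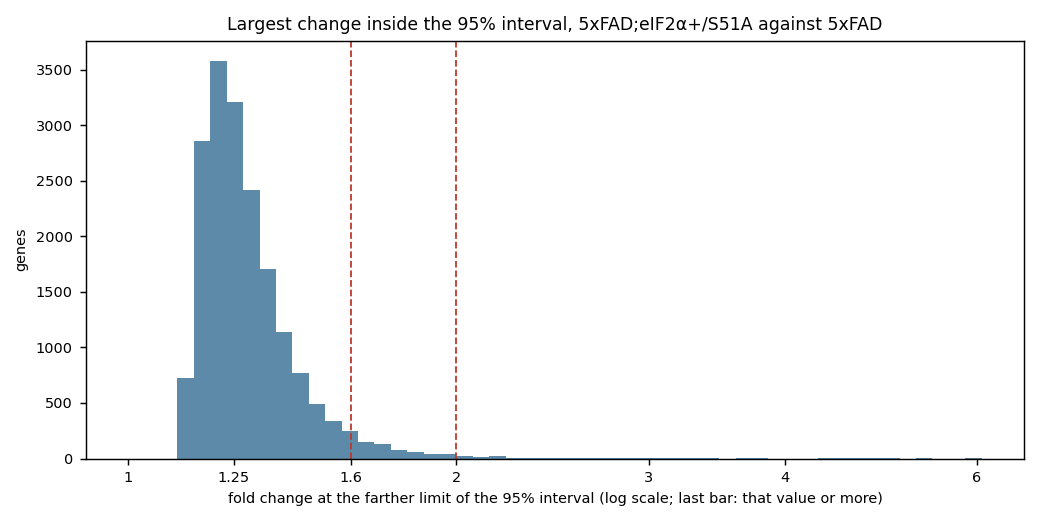
Number of genes (y axis) by the largest fold change, in either direction, inside the 95% interval of the difference between 5xFAD;eIF2α+/S51A and 5xFAD mice (x axis, log scale), over 18101 genes. Dashed lines mark 1.6-fold and 2-fold, and 719 genes lie beyond 1.6-fold.

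The transgene and the knock-in locus were read first. Thy1, whose sequences drive the transgenes, had log2 signals of 11.04, 11.13 and 11.00 in 5xFAD;eIF2α+/S51A mice, against 10.97, 11.16 and 11.34 in 5xFAD mice. App, which encodes the amyloid precursor protein, had signals of 11.69, 11.69 and 11.73 in 5xFAD;eIF2α+/S51A mice, against 11.69, 11.87 and 11.72 in 5xFAD mice. The groups overlapped for both genes, and the differences were -0.10 (95% interval -0.36 to 0.15) for Thy1 and -0.06 (-0.26 to 0.14) for App. In wild-type mice Thy1 had signals of 10.42, 10.29 and 10.23, and App had signals of 11.71, 11.68 and 11.65. The App signals of 5xFAD and wild-type mice overlapped, so App at the gene level does not measure the transgene. Eif2s1 itself had signals of 8.44, 8.40 and 8.40 in 5xFAD;eIF2α+/S51A mice, against 8.46, 8.65 and 8.38 in 5xFAD mice, a difference of -0.08 (-0.30 to 0.14). Eif2s1 had 20 probe sets, of which 0 were called and 0 had an unadjusted p under 0.05 (limma). The allele alters a single codon, so these signals do not check the genotype. The neuronal gene Snap25 had signals between 13.13 and 13.26 over all 12 arrays. Prox1, a transcription factor of dentate granule cells, had signals between 8.06 and 8.85. No other tissue or brain region is in the series for comparison, so these signals cannot test the tissue label.

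To put limits on whole pathways, the log2 signals of the genes of each of 30 lists were averaged per mouse, and the difference of the list means was given a 95% interval. For 28 of the 30 lists this interval contained 0. The interval lay below 0 for the MHC class II pathway and above 0 for the interferon response. For 26 lists the whole interval lay within 1.25-fold in either direction, with a median of the larger limit of 1.14-fold and a lowest value of 1.10-fold. The lists that reached farther were the interferon response (1.33-fold), reactive astrocytes (1.34-fold), the MHC class II pathway (1.83-fold) and the choroid plexus (2.73-fold). When the intervals were widened to hold for all 30 lists at once, by a Bonferroni level of 99.8% each, all 30 contained 0, and 15 still lay within 1.25-fold.

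**Figure D2:**
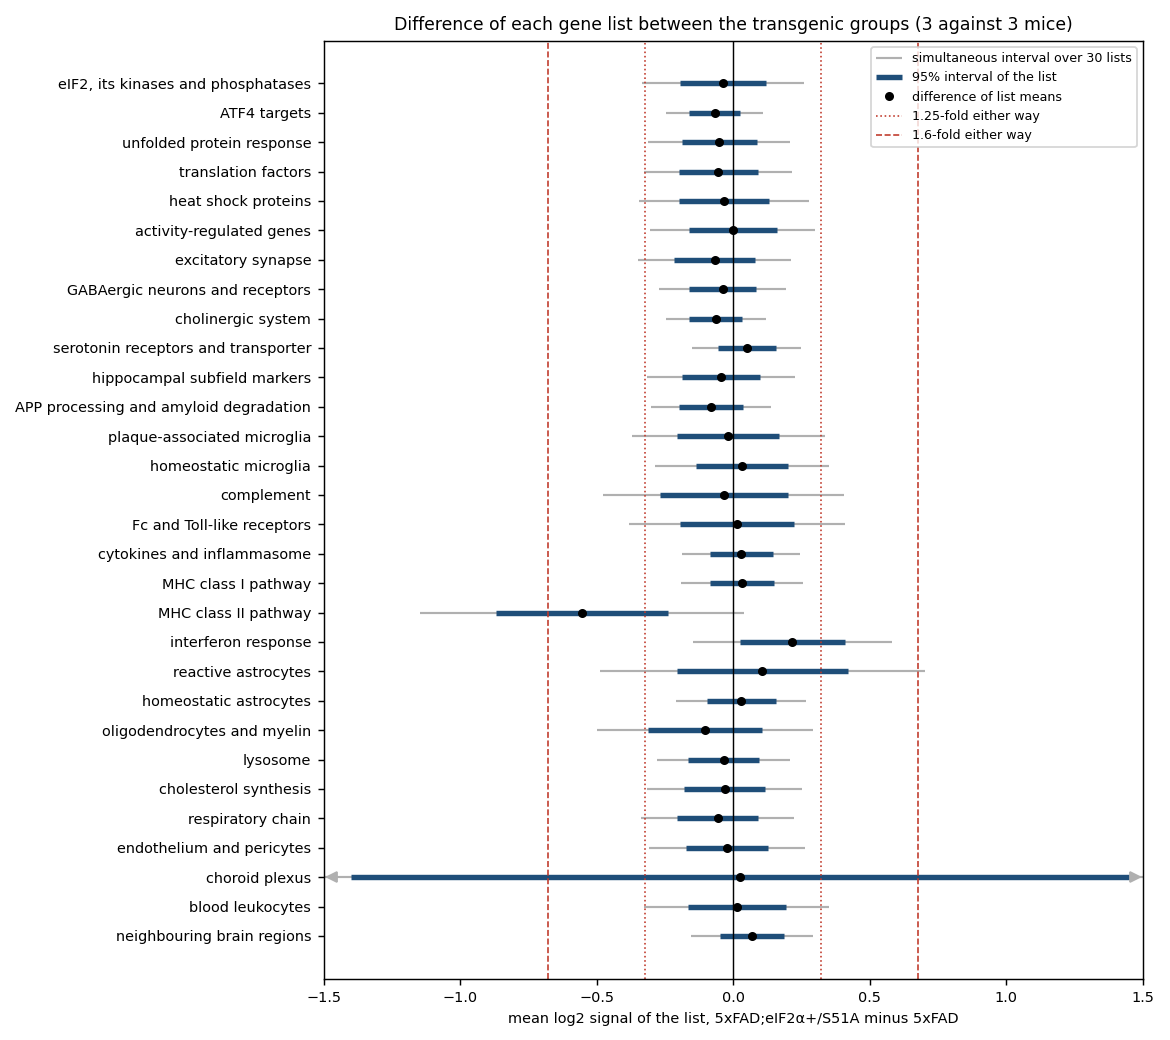
Difference of the mean log2 signal of each gene list between 5xFAD;eIF2α+/S51A and 5xFAD mice (x axis), 1 row per list, from 3 against 3 mice. Points are differences, thick lines their 95% intervals and thin lines intervals that hold over all 30 lists (arrows run past the axis); dotted and dashed lines mark 1.25-fold and 1.6-fold, and only the thick lines of the MHC class II pathway and the interferon response miss 0.

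The genes of eIF2, its kinases and its phosphatases were bounded closely. All 21 listed genes were tested, 0 were called and 0 had an unadjusted p under 0.05, with 7 differences above 0 and 14 below. Over all genes 57.1% of differences were below 0. The list mean differed by -0.04 on the log2 scale (95% interval -0.19 to 0.12), so that the interval reached at most 1.14-fold. The member limits lay between -0.49, for Eif2s3x, and 0.63, for Eif2ak2.

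Among the kinases, Eif2ak3, the gene of the endoplasmic reticulum stress sensor PERK, had log2 signals of 7.40, 7.34 and 7.28 in 5xFAD;eIF2α+/S51A mice, against 7.43, 7.56 and 7.60 in 5xFAD mice. Every 5xFAD;eIF2α+/S51A mouse lay below every 5xFAD mouse, and the difference was -0.19 (-0.39 to 0.01). Eif2ak1, the gene of the haem-regulated kinase HRI, was the other member without overlap, at 8.65, 8.64 and 8.56 in 5xFAD;eIF2α+/S51A mice, against 8.70, 8.80 and 8.73 in 5xFAD mice, a difference of -0.13 (-0.39 to 0.13). These 2 of 21 genes stand beside 4.66% of all genes. Eif2ak4, the gene of the amino acid sensor GCN2, differed by -0.08 (-0.30 to 0.14). Eif2ak2, the gene of the double-stranded RNA sensor PKR, is itself interferon-inducible. Its signals were 7.30, 7.07 and 7.03 in 5xFAD;eIF2α+/S51A mice, against 6.78, 7.53 and 6.66 in 5xFAD mice, and the 5xFAD mice spanned the whole range.

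The phosphatase subunits that return eIF2α to its unphosphorylated form were measured too. Ppp1r15a, which encodes the stress-induced GADD34, differed by -0.16 on the log2 scale (-0.35 to 0.03), and Ppp1r15b, which encodes the constitutive CReP, by -0.13 (-0.31 to 0.05). Differences of the 5 subunit genes of eIF2B, the exchange factor that phosphorylated eIF2 inhibits, lay between -0.08 and 0.06. The other eIF2 subunit genes Eif2s2 and Eif2s3x each differed by -0.07.

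Most ATF4 targets had differences below 0 in 5xFAD;eIF2α+/S51A mice, 30 of 43 tested genes against 13 above 0, and 0 were called. Over all genes 57.1% of differences were below 0. Other lists leaned this way too, with 35 translation factors below 0 and 9 above, and 31 respiratory chain genes below and 12 above. The list mean differed in this direction for 19 of the 30 lists. Means of the ATF4 targets per mouse were 8.18, 8.26 and 8.29 in 5xFAD;eIF2α+/S51A mice, against 8.30, 8.30 and 8.33 in 5xFAD mice. These list means did not overlap, and their log2 difference was -0.07 (95% interval -0.16 to 0.02). With the median of the genes in place of their mean the difference was -0.25 (-0.42 to -0.08), and with array weights it was -0.08 (-0.17 to -0.0018), and neither interval contained 0. The median per mouse is the level of the middle-ranked gene, so it rests on few genes and is not the median of the member differences. Of 30 alternatives, the interval widened over all lists among them, 28 gave an interval that contained 0. In fold terms the interval of the list mean lay between 0.89-fold and 1.02-fold of 5xFAD mice. The median of the member differences was -0.08, against -0.02 over all genes. Of the 43 genes, 2 had an unadjusted p under 0.05 and both were lower, and for 11 genes every 5xFAD;eIF2α+/S51A mouse lay below every 5xFAD mouse, against 0.989% and 4.66% of all genes. For 0 genes did the mice of the groups separate the other way, against 2.78%. No interval of the 43 genes reached beyond 1.6-fold, and the outermost limits, -0.62 and 0.50, were both those of the cystine transporter gene Slc7a11.

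The clearest members were Chac1 and Cars. Chac1, which encodes an enzyme that degrades glutathione, had log2 signals of 7.79, 7.85 and 8.01 in 5xFAD;eIF2α+/S51A mice, against 8.25, 8.02 and 8.15 in 5xFAD mice. The difference was -0.26 (standard error 0.09, 95% interval -0.44 to -0.07) with the nearest mice of the groups at 8.01 and 8.02. Cars, the gene of cysteinyl-tRNA synthetase, had signals of 7.98, 8.09 and 8.15 in 5xFAD;eIF2α+/S51A mice, against 8.35, 8.38 and 8.48 in 5xFAD mice, a difference of -0.33 (standard error 0.12). Adjusted over all genes, the p of both was 0.9999 (limma). Of the other members without overlap, Gars, Nars, Iars, Mars1 and Sars encode further tRNA synthetases, with differences of -0.25, -0.17, -0.20, -0.22 and -0.11. Slc7a1, an importer of cationic amino acids, differed by -0.18, Aldh18a1, an enzyme of proline synthesis, by -0.18, the tRNA exporter Xpot by -0.13 and the lipoprotein receptor Vldlr by -0.16.

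Genes that are often read as reporters of the response did not separate the groups. Atf4 had log2 signals of 9.70, 9.60 and 9.51 in 5xFAD;eIF2α+/S51A mice, against 9.73, 9.65 and 9.84 in 5xFAD mice, a difference of -0.14 (-0.39 to 0.11). Asns, the gene of asparagine synthetase, had signals of 10.98, 11.06 and 11.32 in 5xFAD;eIF2α+/S51A mice, against 11.29, 11.29 and 11.15 in 5xFAD mice, a difference of -0.12 (-0.35 to 0.10). Ddit3, which encodes the transcription factor CHOP, had signals of 7.03, 6.98 and 6.92 in 5xFAD;eIF2α+/S51A mice, against 6.83, 6.82 and 7.02 in 5xFAD mice, a difference of 0.09 (-0.16 to 0.34). The ATF4 inhibitor gene Trib3 differed by 0.12, and the mTORC1 inhibitor gene Ddit4 by 0.19. Array signals report the amount of Atf4 mRNA and not its translation.

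**Figure D3:**
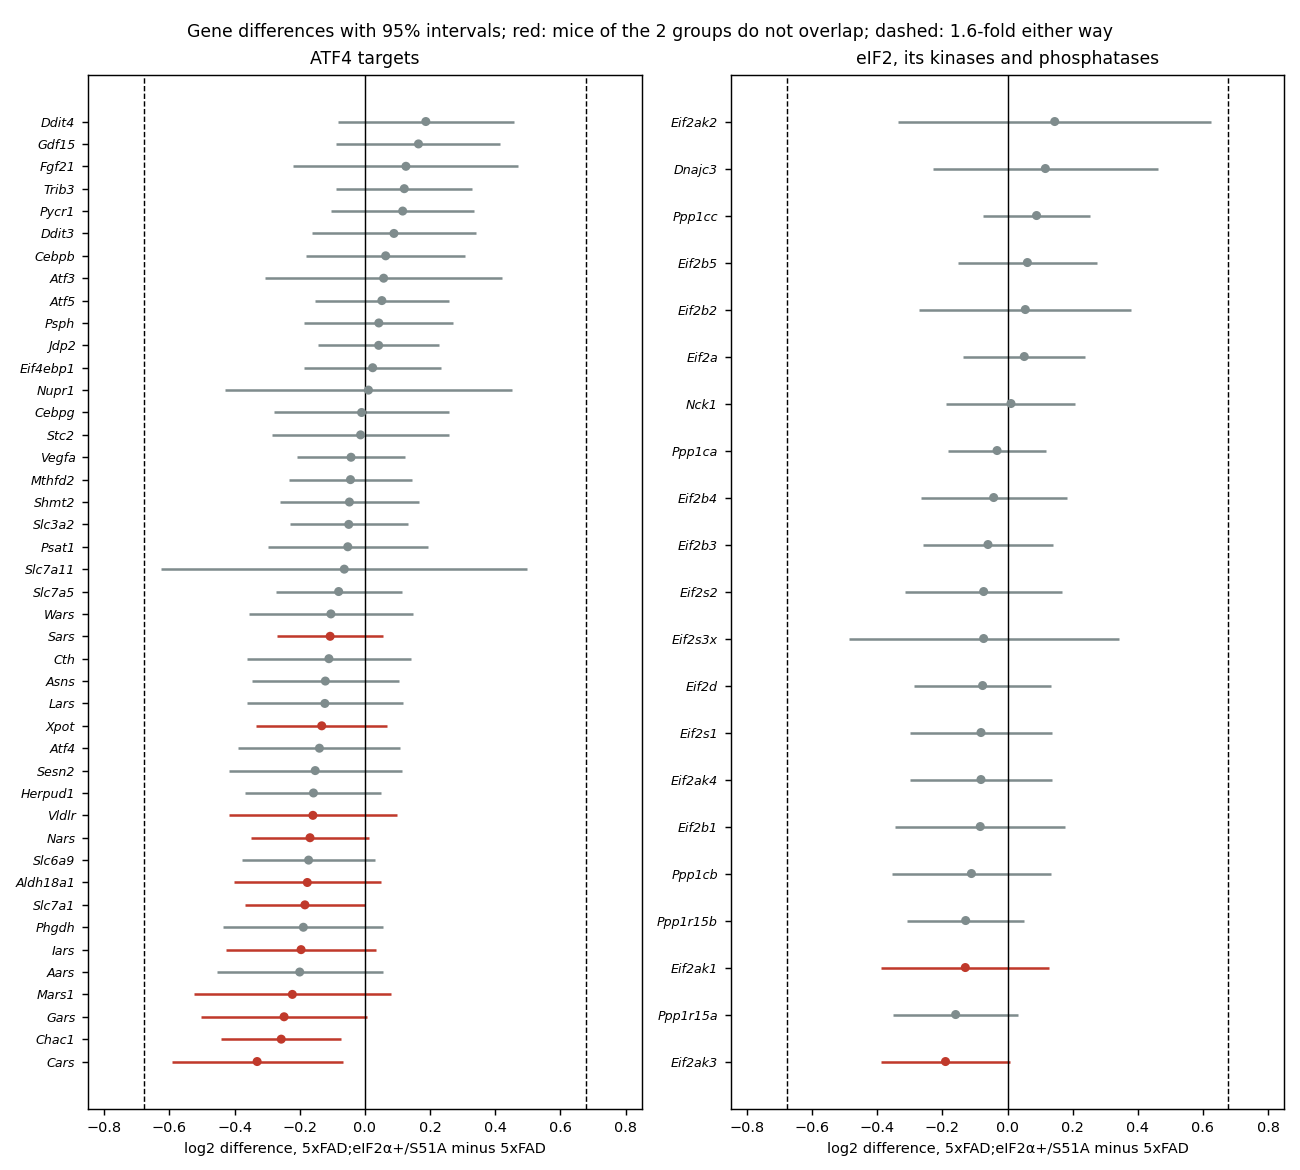
Log2 difference between 5xFAD;eIF2α+/S51A and 5xFAD mice (x axis) of each tested ATF4 target (left, 43 genes) and each gene of eIF2, its kinases and phosphatases (right, 21 genes), with 95% intervals. Red marks genes whose 3 against 3 mice do not overlap, 11 on the left and 2 on the right, all lower; dashed lines mark 1.6-fold, which no interval crosses.

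Chac1 is shown with the 250 bases before its start because its promoter holds the composite site through which ATF4 and its partners of the C/EBP family are known to act. The letters searched were TGATGNAA, on both strands. In RefSeq promoters of GRCm38.p6, 12 of the 36 ATF4 targets with an entry (33.3%) held a match, against 3.9% of all 27025 genes with an entry. The Chac1 stretch is chr2:119350992-119351241 on the plus strand, and the capitals mark its single match, 193 bases before the start.
Chac1: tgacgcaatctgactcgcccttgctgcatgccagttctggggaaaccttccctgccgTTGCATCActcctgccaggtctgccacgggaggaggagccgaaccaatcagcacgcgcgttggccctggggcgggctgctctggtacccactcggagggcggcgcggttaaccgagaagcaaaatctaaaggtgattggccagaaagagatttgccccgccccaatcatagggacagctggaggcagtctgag

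Other parts of the protein-making and protein-folding machinery were bounded closely. Over the 34 genes of the unfolded protein response the list mean differed by -0.05 on the log2 scale (95% interval -0.19 to 0.09), with means of 8.76, 8.71 and 8.76 in 5xFAD;eIF2α+/S51A mice, against 8.77, 8.83 and 8.78 in 5xFAD mice. These means did not overlap either, with the nearest at 8.76 and 8.77. Hspa5, the gene of the chaperone BiP, differed by -0.04 (-0.36 to 0.28). The 44 tested translation factors differed by -0.06 (-0.20 to 0.09), and the 17 tested heat shock genes by -0.03 (-0.20 to 0.13). None of these lists had a member with an unadjusted p under 0.05 (limma).

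MHC class II genes showed the largest difference of any list. MHC class II molecules display peptides from engulfed proteins to T helper cells, and in the brain they are made by reactive microglia, macrophages and other antigen-presenting cells. Of 12 listed genes 9 were tested, and H2-DMb1, H2-DMb2 and H2-Ob were not tested. None of the 9 was called. The 4 genes H2-Aa, H2-Ab1, H2-Eb1 and Cd74 had an unadjusted p under 0.05 and were lower in every 5xFAD;eIF2α+/S51A mouse than in any 5xFAD mouse, against 0.989% and 4.66% of all genes. The median of the 9 differences was -0.27.

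H2-Aa encodes the α chain of the class II molecule I-A. Its log2 signals were 5.80, 6.35 and 6.51 in 5xFAD;eIF2α+/S51A mice, against 7.89, 7.62 and 7.60 in 5xFAD mice, a difference of -1.48 (standard error 0.32, 95% interval -2.17 to -0.79). H2-Ab1, the β chain of I-A, had signals of 5.80, 6.29 and 6.56 in 5xFAD;eIF2α+/S51A mice, against 7.37, 7.31 and 7.32 in 5xFAD mice, a difference of -1.12 (standard error 0.25, -1.67 to -0.57). The groups did not overlap for either gene, and the 5xFAD mice were the tighter of them. H2-Eb1, the β chain of I-E, had signals of 6.93, 6.92 and 7.26 in 5xFAD;eIF2α+/S51A mice, against 7.87, 7.84 and 7.68 in 5xFAD mice, a difference of -0.76 (standard error 0.14, -1.07 to -0.45). Cd74, the invariant chain that escorts class II molecules, had signals of 7.24, 7.71 and 8.52 in 5xFAD;eIF2α+/S51A mice, against 9.63, 9.28 and 9.55 in 5xFAD mice, a difference of -1.66 (standard error 0.42, -2.56 to -0.76). The adjusted p from limma was 0.7805 for H2-Eb1 and 0.9999 for the other 3 genes. These 4 genes had the lowest differences of the list, and Cd74 the lowest of all genes tested.

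The probe sets of these genes mostly pointed the same way. For Cd74, 14 of 15 were lower in 5xFAD;eIF2α+/S51A mice, from -2.45 to 0.22 on the log2 scale, and for H2-Ab1 5 of 5. For H2-Aa 6 of 9 and for H2-Eb1 7 of 9 were lower. No single probe set was called (limma over all probe sets), and an unadjusted p under 0.05 was reached by 12 probe sets of Cd74, 4 of H2-Ab1, 4 of H2-Aa and 5 of H2-Eb1. Among all probe sets with 1 gene symbol the share was 2.67%. The probe sets of a gene were read in the same mice, so they are not separate evidence.

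The 5 remaining members had intervals that contained 0. Ciita, the master activator of class II genes, had log2 signals of 6.18, 6.07 and 6.19 in 5xFAD;eIF2α+/S51A mice, against 6.22, 6.00 and 6.11 in 5xFAD mice, a difference of 0.04 (-0.19 to 0.26). Ifi30, a thiol reductase of antigen processing, differed by 0.33 (-0.05 to 0.70), H2-Eb2 by -0.27 (-0.65 to 0.11), H2-Oa by -0.12 and the peptide-loading gene H2-DMa by 0.05. The list mean was 6.76, 6.88 and 7.03 in 5xFAD;eIF2α+/S51A mice, against 7.50, 7.45 and 7.38 in 5xFAD mice. Its difference was -0.55 (standard error 0.14, 95% interval -0.87 to -0.24), or 0.55-fold to 0.85-fold. With the interval that holds over all 30 lists the limits were -1.15 and 0.04. Without the filter on dim probe sets the list difference was -0.29, with an interval from -0.52 to -0.05. H2-Aa then differed by -0.42, with an interval from -0.85 to 0.0042 that contains 0, and H2-Eb1 by -0.46 (-0.73 to -0.19), while H2-Ab1 and Cd74 stayed at -1.12 and -1.66.

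**Figure D4:**
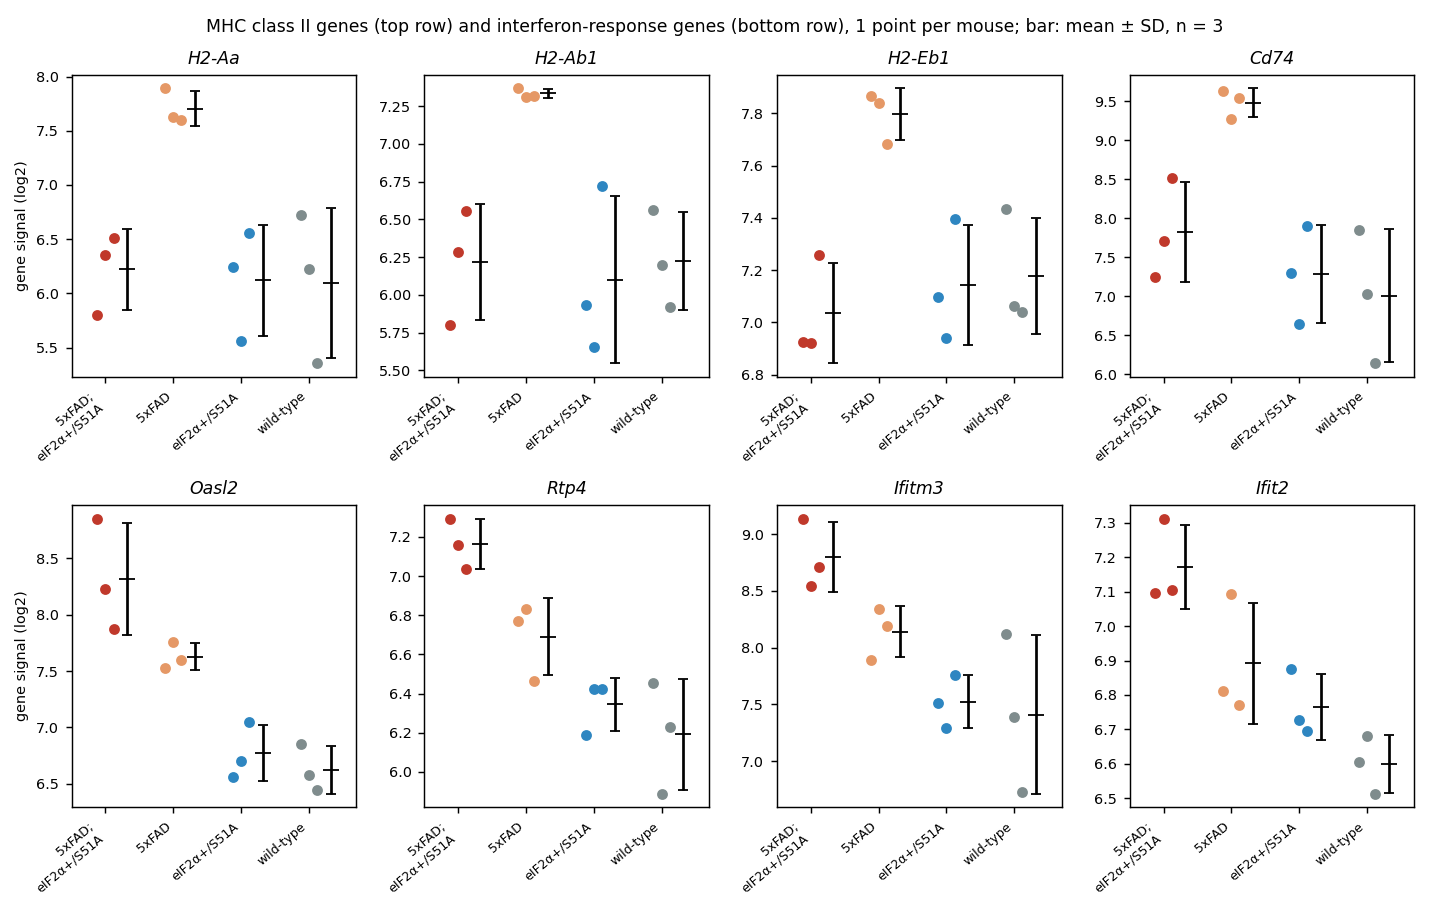
Log2 signal (y axes, each with its own range) of MHC class II genes (top) and interferon-response genes (bottom) in 5xFAD;eIF2α+/S51A, 5xFAD, eIF2α+/S51A and wild-type mice; points are mice and bars the mean ± SD (n = 3). In the top row the 5xFAD mice lie above all other mice, and in the bottom row the 5xFAD;eIF2α+/S51A mice lie above all 5xFAD mice.

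Without the transgenes the class II list did not show this difference. The list means were 6.74, 6.48 and 6.97 in eIF2α+/S51A mice, against 7.00, 6.70 and 6.46 in wild-type mice, a difference of 0.01 on the log2 scale (-0.30 to 0.33). The interaction, which is the allele difference with the transgenes less that without them, was -0.57 for the list, with a 95% interval from -1.01 to -0.12, the only list of the 30 whose interval did not contain 0. The interval that holds over all 30 lists did contain 0. For Cd74 the interaction was -1.93 (-3.21 to -0.66), with an adjusted p of 0.9999 (limma). The 5xFAD arrays also serve in 5xFAD against wild-type mice, where the list differed by 0.72 (0.41 to 1.04) and Cd74 by 2.47. The comparisons share those 3 arrays, so their values are set side by side and no more. Cd74 averaged 7.82 ± 0.65 in 5xFAD;eIF2α+/S51A mice and 9.48 ± 0.18 in 5xFAD mice (SD, n = 3 each), and 7.29 ± 0.63 in eIF2α+/S51A mice and 7.01 ± 0.86 in wild-type mice (SD, n = 3 each).

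Markers of other cells were read beside this result. The mean of 19 tested blood leukocyte markers was 6.49, 6.46 and 6.52 in 5xFAD;eIF2α+/S51A mice, against 6.52, 6.43 and 6.48 in 5xFAD mice, a log2 difference of 0.01 (-0.17 to 0.19). The mean of 20 choroid plexus markers varied within both groups, at 8.27, 6.79 and 8.59 in 5xFAD;eIF2α+/S51A mice, against 6.82, 8.63 and 8.12 in 5xFAD mice. With that mean as a covariate the class II list difference was -0.56 (-0.82 to -0.29). In whole tissue, fewer cells of a type and less RNA per cell cannot be told apart.

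The promoters of H2-Aa and H2-Eb1 are shown because class II promoters share a box, CCAAT, bound by the factor NF-Y beside the sites that recruit Ciita. The letters CCAAT were searched on both strands in the 250 bases before the start. They were found in 5 of the 6 listed class II genes with an entry among RefSeq promoters of GRCm38.p6 (83.3%), against 37.5% of all 27025 genes. The capitals mark the matches, 48 bases before the start in H2-Aa (chr17:34287824-34288073, minus strand), and 59 and 35 bases before the start in H2-Eb1 (chr17:34305617-34305866, plus strand).
H2-Aa: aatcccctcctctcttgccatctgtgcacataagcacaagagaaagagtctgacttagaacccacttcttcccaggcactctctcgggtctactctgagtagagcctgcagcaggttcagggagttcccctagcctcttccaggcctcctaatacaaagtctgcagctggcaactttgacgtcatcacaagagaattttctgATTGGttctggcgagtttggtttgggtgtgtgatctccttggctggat
H2-Eb1: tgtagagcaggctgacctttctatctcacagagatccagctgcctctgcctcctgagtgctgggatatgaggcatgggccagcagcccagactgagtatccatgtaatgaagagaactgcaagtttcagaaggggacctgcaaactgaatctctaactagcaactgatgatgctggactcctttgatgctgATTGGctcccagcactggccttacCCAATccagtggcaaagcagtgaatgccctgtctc

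Most genes of the interferon response had differences above 0. Type I interferon induces a set of antiviral genes in most cell types, microglia included. Of 35 listed genes 32 were tested, and 0 were called. In 5xFAD;eIF2α+/S51A mice 30 of the 32 differences were above 0, with a median of 0.17, where 57.1% of all genes were below 0. An unadjusted p under 0.05 was reached by 8 genes, all higher, and for 8 genes every 5xFAD;eIF2α+/S51A mouse lay above every 5xFAD mouse, against 1.49% and 2.78% of all genes. Ifi35 was the 1 member below without overlap, with a difference of -0.16.

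Oasl2, an antiviral gene of the oligoadenylate synthetase family, had log2 signals of 8.85, 8.23 and 7.87 in 5xFAD;eIF2α+/S51A mice, against 7.53, 7.76 and 7.60 in 5xFAD mice. The groups did not overlap, and the difference was 0.69 (standard error 0.21, 95% interval 0.24 to 1.14). Ifitm3, which blocks the entry of viruses, had signals of 9.14, 8.54 and 8.71 in 5xFAD;eIF2α+/S51A mice, against 7.90, 8.34 and 8.19 in 5xFAD mice, a difference of 0.66 (0.05 to 1.26). Rtp4 had signals of 7.29, 7.16 and 7.04 in 5xFAD;eIF2α+/S51A mice, against 6.77, 6.83 and 6.47 in 5xFAD mice, a difference of 0.47 (0.16 to 0.79). None of these 3 genes overlapped between the groups, and the adjusted p of each was 0.9999 (limma). Ifi44 had the widest difference of the list, 0.75, but its signals of 8.29, 7.18 and 7.19 in 5xFAD;eIF2α+/S51A mice overlapped those of 6.74, 7.20 and 6.48 in 5xFAD mice. Ifit2 differed by 0.28, the guanylate-binding gene Gbp3 by 0.25 and the exonuclease gene Isg20 by 0.16, each without overlap. The transcription factors that drive the programme were near 0, with Stat2 at 0.02 (-0.18 to 0.23) and Irf7 at 0.08 (-0.19 to 0.34).

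The list mean of the interferon response was 7.31, 7.04 and 7.02 in 5xFAD;eIF2α+/S51A mice, against 6.88, 6.98 and 6.85 in 5xFAD mice, a difference of 0.22 (standard error 0.09, 95% interval 0.02 to 0.41), or 1.02-fold to 1.33-fold. Replicate 1 of the 5xFAD;eIF2α+/S51A mice, the array of this group with high Xist, was the highest, and without it the difference was 0.12 with an interval from -0.05 to 0.30. Oasl2 without it differed by 0.42. In eIF2α+/S51A against wild-type mice the list differed by 0.08 (-0.11 to 0.27), and the interaction was 0.14 (-0.14 to 0.41). The interferon-stimulated response element, searched on both strands as GAAA, any 2 bases and GAAA, was in the 250 bases before the start of 9 of 24 list genes with an entry (37.5%), against 3.5% of all genes. The MHC class I pathway, which interferon also induces, differed by 0.03 (-0.09 to 0.15). Within it the non-classical class I gene H2-T23 had signals of 7.33, 7.32 and 7.25 in 5xFAD;eIF2α+/S51A mice, against 7.06, 6.80 and 6.92 in 5xFAD mice, a difference of 0.38 (0.08 to 0.68). With only bright probe sets, above the 75th percentile, H2-T23 differed by -0.02.

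Genes of the microglia around plaques, as a list, were bounded within a narrow range. Over 33 tested genes of plaque-associated microglia the list mean differed by -0.02 on the log2 scale (95% interval -0.21 to 0.17), so that the interval reached at most 1.15-fold. The list means were 9.30, 9.47 and 9.57 in 5xFAD;eIF2α+/S51A mice, against 9.49, 9.57 and 9.33 in 5xFAD mice, and for 0 of the 33 genes did the mice of the groups separate, against 7.44% of all genes. On the arrays that 5xFAD and wild-type mice contribute, the same list differed by 1.42 (1.24 to 1.61) between those genotypes. Trem2, a lipid-sensing receptor of microglia, differed by 0.18 (-0.20 to 0.56) between the transgenic groups and Clec7a, a pattern-recognition receptor, by 0.04 (-0.44 to 0.53). The integrin gene Itgax had signals of 6.71, 7.55 and 7.22 in 5xFAD;eIF2α+/S51A mice, against 8.36, 7.90 and 7.18 in 5xFAD mice, a difference of -0.65 (-1.27 to -0.04) with overlap. This difference was -0.97 without 5xFAD replicate 3 and -0.38 without 5xFAD replicate 1. Spp1, the gene of osteopontin, was the least bounded member, with an interval from -1.28 to 1.00.

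The homeostatic microglia list, of 18 tested genes, differed by 0.03 (-0.14 to 0.20). In it P2ry12, a purinergic receptor, differed by 0.09 and Tmem119 by 0.03. Complement genes, 19 tested, differed by -0.04 (-0.27 to 0.20), with C1qa at 0.04 (-0.17 to 0.25) and C1qc at -0.10 (-0.37 to 0.18). C4b, a complement gene that astrocytes also express, had log2 signals of 9.97, 9.90 and 10.15 in 5xFAD;eIF2α+/S51A mice, against 10.47, 10.51 and 10.28 in 5xFAD mice. These did not overlap, and the difference was -0.42 (-0.95 to 0.12). Fc and Toll-like receptors differed by 0.01 (-0.20 to 0.22), and cytokines and inflammasome genes by 0.03 (-0.09 to 0.14). Among the cytokine genes, the chemokine gene Cxcl12 had signals of 7.50, 7.64 and 7.47 in 5xFAD;eIF2α+/S51A mice, against 7.80, 7.80 and 7.92 in 5xFAD mice, a difference of -0.30 (standard error 0.09). Lysosomal genes, 38 tested, differed by -0.04 (-0.16 to 0.09).

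Astrocyte lists were bounded less closely. Reactive astrocyte genes, 23 tested, differed by 0.11 on the log2 scale (-0.21 to 0.42), and the means of 7.99, 8.03 and 8.43 in 5xFAD;eIF2α+/S51A mice overlapped those of 7.93, 8.31 and 7.89 in 5xFAD mice. Without 5xFAD;eIF2α+/S51A replicate 3 the list differed by -0.03 (-0.33 to 0.26), and without 5xFAD replicate 2 by 0.24 (-0.07 to 0.55). Emp1, a membrane protein of reactive astrocytes, was the 1 member with an unadjusted p under 0.05, at 6.59, 6.89 and 6.74 in 5xFAD;eIF2α+/S51A mice, against 6.28, 6.44 and 6.40 in 5xFAD mice, a difference of 0.36 (0.12 to 0.61). Homeostatic astrocyte genes differed by 0.03 (-0.10 to 0.15), and within them the potassium channel gene Kcnj10 by 0.23 without overlap. With the median of its probe sets Kcnj10 differed by 0.02, and its interval contained 0 under 7 of 27 alternatives. Oligodendrocyte and myelin genes, 20 tested, differed by -0.10 (-0.31 to 0.11). There the myelin genes Mag, Cnp and Mbp were lower without overlap, with differences of -0.31, -0.28 and -0.14, and for 4 of the 20 genes in all the mice separated this way, against 4.66% of all genes. In eIF2α+/S51A against wild-type mice 5 genes of this list were higher without overlap, against 3.92% of all genes, and 0 were lower.

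Neuronal lists lay within narrow limits. Activity-regulated genes, 28 tested, differed by -0.0027 on the log2 scale (95% interval -0.16 to 0.16), with Fos at 0.01 (-0.33 to 0.36) and Arc at -0.08 (-0.51 to 0.35). The transcription factor gene Klf4 was the 1 member with an unadjusted p under 0.05, with a difference of 0.26 and no overlap. Excitatory synapse genes, 28 tested, differed by -0.07 (-0.22 to 0.08) and GABAergic genes, 20 tested, by -0.04 (-0.16 to 0.08). Gad1, the main enzyme of GABA synthesis, had signals of 10.71, 10.67 and 10.52 in 5xFAD;eIF2α+/S51A mice, against 10.85, 10.81 and 10.84 in 5xFAD mice, a difference of -0.20 (-0.37 to -0.02). The cholinergic list differed by -0.06 (-0.16 to 0.03), with Chrna7, the α7 nicotinic receptor, at -0.30 (-0.59 to -0.01), and the serotonin list by 0.05 (-0.06 to 0.16). Hippocampal subfield markers differed by -0.05 (-0.19 to 0.10), and Fibcd1, a marker of CA1 neurons, by -0.29 without overlap.

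APP processing and amyloid degradation were bounded within 1.15-fold. The list, 26 genes tested, differed by -0.08 on the log2 scale (-0.20 to 0.03), with 22 genes below 0 and 4 above, where 57.1% of all genes were below 0. For 4 genes every 5xFAD;eIF2α+/S51A mouse lay below every 5xFAD mouse, against 4.66% of all genes. Among them Aplp2, a relative of App, differed by -0.16 (-0.32 to -0.0014), the adaptor gene Apba2 by -0.23 and the BRI family gene Itm2c by -0.25. Bace1, the β-secretase, had signals of 8.89, 9.02 and 8.74 in 5xFAD;eIF2α+/S51A mice, against 8.89, 8.89 and 9.03 in 5xFAD mice, a difference of -0.06 (-0.29 to 0.17). Cholesterol synthesis genes differed by -0.03 (-0.18 to 0.12), respiratory chain genes by -0.06 (-0.21 to 0.09), and endothelial and pericyte genes by -0.02 (-0.17 to 0.13). Markers of neighbouring brain regions differed by 0.07 (-0.05 to 0.19), and the mice did not overlap in their mean. The choroid plexus list, at 0.02, was the least bounded, with an interval from -1.40 to 1.45.

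Single genes outside these lists were read by their p. Vmn2r25, a vomeronasal receptor gene read by 2 probe sets, had the smallest of all, with log2 signals of 7.04, 6.70 and 6.66 in 5xFAD;eIF2α+/S51A mice, against 5.79, 5.87 and 5.79 in 5xFAD mice. Its difference of 0.98 (standard error 0.14, adjusted p = 0.2294, limma) was 0.21 without the filter on dim probe sets. Tmprss15, the gene of the gut protease enteropeptidase, differed by 0.64 and Trav3-1, a T cell receptor segment, by 0.48, both without overlap. Without that filter Tmprss15 differed by 0.05 (-0.12 to 0.23) and Trav3-1 by 0.48. Slc7a3, an importer of cationic amino acids, had signals of 7.37, 7.27 and 7.23 in 5xFAD;eIF2α+/S51A mice, against 7.82, 7.70 and 7.70 in 5xFAD mice, a difference of -0.45 (standard error 0.10, adjusted p = 0.9999, limma). In eIF2α+/S51A against wild-type mice Slc7a3 differed by -0.25, where the mice overlapped.

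The same allele was measured in other mice by setting eIF2α+/S51A against wild-type mice, which share no array with the transgenic groups. There too 0 of 18101 genes were called (0%), the smallest adjusted p was 0.3755, and 403 genes (2.23%) had an unadjusted p under 0.05 (limma). The mice did not overlap for 709 higher genes (3.92%) and 445 lower genes (2.46%). In 45 genes (0.249%) the mice did not overlap in both comparisons and the direction was the same. Chac1 was among them, at -0.26 with the transgenes and -0.20 without, and so was Cxcl12, at -0.30 with and -0.27 without. The mean of both allele differences was -0.23 for Chac1 (-0.36 to -0.10) and -0.29 for Cxcl12 (-0.42 to -0.15). Both genes were picked from the 45 for that separation, so these intervals are not separate evidence. Whether 45 genes are more than the shares of the single comparisons would give was not tested. When the differences of both comparisons were averaged over all 12 mice, 0 genes were called (0%), with 451 at an unadjusted p under 0.05 (2.49%) and a smallest adjusted p of 0.7749. The test of the interaction also called 0 genes (0%), with 424 at an unadjusted p under 0.05 (2.34%) and a smallest adjusted p of 0.9999.

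Genes beside the knock-in locus are inherited with it, so the 25 tested genes on each side of Eif2s1 on chromosome 12 were read in order. Of these 50 genes 1 was higher and 6 were lower without overlap in 5xFAD;eIF2α+/S51A mice, against 2.78% and 4.66% of all genes. Differences lay below 0 for 33 of them, against 57.1% of all genes. The median was -0.05. Signs in the 2 allele comparisons were the same for 23 of the 50 genes (46%), against 48.8% of all genes. Churc1, the 12th tested gene before Eif2s1, was the only one without overlap in both comparisons. Its log2 signals were 8.00, 7.97 and 7.75 in 5xFAD;eIF2α+/S51A mice, against 8.35, 8.57 and 8.30 in 5xFAD mice, a difference of -0.50 (standard error 0.11, 95% interval -0.74 to -0.26, adjusted p = 0.9999, limma). In the mice without transgenes the signals were 8.06, 8.20 and 7.92 in eIF2α+/S51A mice, against 8.46, 8.28 and 8.52 in wild-type mice, a difference of -0.36. All 7 of its probe sets were lower in 5xFAD;eIF2α+/S51A mice, from -0.89 to -0.08, and the interaction was -0.14 (-0.48 to 0.20). The gene next to Eif2s1 on the one side, Atp6v1d, a subunit of the vacuolar proton pump, differed by 0.09 (-0.10 to 0.27), and that on the other side, Plek2, by -0.09.

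**Figure D5:**
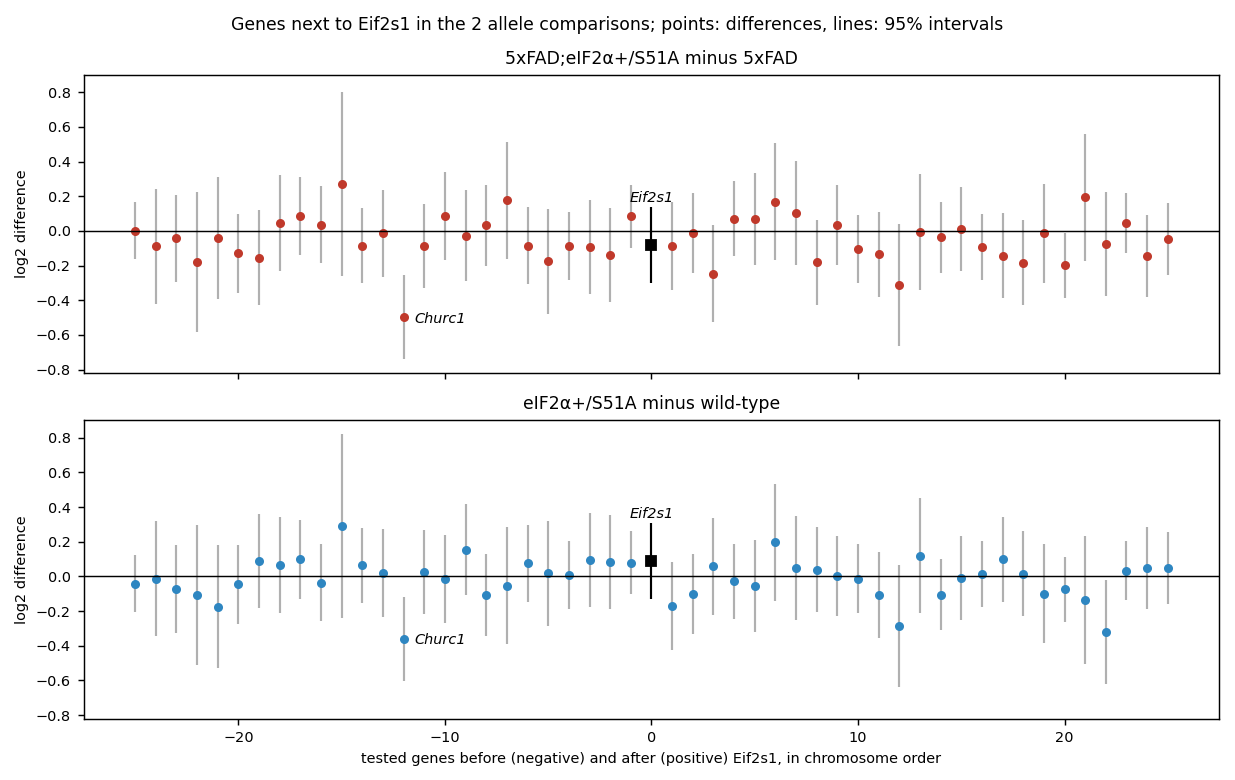
Log2 difference with 95% interval (y axis) of the 25 tested genes on each side of Eif2s1, in chromosome order (x axis, rank from Eif2s1), for 5xFAD;eIF2α+/S51A minus 5xFAD mice (top) and eIF2α+/S51A minus wild-type mice (bottom), 3 against 3 mice each. Churc1 stands below 0 in both panels, at -0.50 and -0.36, and the intervals of Eif2s1 contain 0.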

How the data were processed

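Hippocampal RNA of 12 mice, 3 per genotype, was read on 1 array per mouse. The authors deposited a table with log2 signals of exon probe sets. Its maker was not settled here: RMA and Affymetrix Expression Console stand in the processing notes of the submitters (no versions), GC-RMA in GeneSpring GX in the methods, and an Exon Array Computational Tool in the design text. No genome build is given in the sources used here.

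Of 1236087 probe sets with values, 321091 had 1 gene symbol in the platform annotation, 7796 had several and 907200 had none. Symbols of 47350 probe sets were updated through RefSeq names of GRCm38.p6. Probe sets with 1 symbol and a mean of at least 5.35, the median of the table, were combined per gene by Tukey's median polish, for genes with at least 2. limma 3.58.1 in R 4.3.3 (data.table version 1.17.8) fitted 4 group means to all 12 arrays, with 8 residual degrees of freedom. The number of arrays limits the precision. Each array is from its own animal. Such signals carry no depth, and the array medians lay between 5.39 and 5.45. Of 783 list symbols 730 were tested.

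Members, lists and tests were chosen with earlier results of these data known. Named genes were the 5 with the smallest p in each direction, up to 5 per list with the smallest p, all class II and eIF2 genes, the 5 neighbours on each side of Eif2s1, and a set of genes of the study. Further ATF4 targets, interferon genes, microglial and myelin genes and neighbours, and Penk, Dnaaf4, Ctse, Npl and Cnr2, were named after their values were seen. Known differences were simulated, with genes drawn independently, to check the comparison of the transgenic groups for single genes and for list means. The other tests were not simulated. Alternatives changed the gene summary, the filter, the normalization, the arrays, covariates, weights, thresholds and the replicate block. The arrays with low Xist alone were added after seeing the data. Promoters were read with Python.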

Additional observations from a re-analysis of the deposited data

Results flagged for a closer look

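Fbxw19, a gene of the F-box family read by 3 probe sets near the background level, differed between the allele comparisons. Its log2 signals were 5.84, 5.92 and 5.99 in 5xFAD;eIF2α+/S51A mice, against 5.29, 5.31 and 5.52 in 5xFAD mice. In eIF2α+/S51A mice it was lower than in wild-type mice, by 0.15 on the log2 scale, and the mice did not overlap in either comparison. It drew attention because the groups separated in opposite directions in the allele comparisons. The interaction was 0.70 (95% interval 0.40 to 0.99), with an adjusted p of 0.9999 from limma. Fbxw19 was picked for that opposite separation, so this interval is not separate evidence. Whether more genes separate in this way than the shares of the single comparisons would give was not tested. Without the filter on dim probe sets the difference between the transgenic groups was 0.12.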

How the results depend on the processing

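The number of called genes between the transgenic groups was 0 under every alternative but that of an unadjusted p under 0.05 without a fold threshold, which gives 448. Leaving out each array in turn gave 0 calls each time, with 366 to 794 genes at an unadjusted p under 0.05 and a lowest adjusted p of 0.0332. Replicate numbers do not pair the mice: same-numbered mice correlated between -0.32 and 0.32 in their deviations from the group means, and the replicate block gave 0 calls, 511 genes at an unadjusted p under 0.05 and an MHC class II list difference of -0.55. Of 899 list values under alternatives, 886 moved by less than 1 SD between mice. Both counts include, for each of the 30 lists, the interval widened over all lists, which keeps the main difference and could not move. The MHC class II difference was -0.29 without the filter on dim probe sets and -0.38 with the filter at the 75th percentile, and from -0.62 to -0.49 with each array left out. The interferon interval contained 0 under 6 of 30 alternatives, and that list lay between 0.12 and 0.27 with each array left out. With the 8 arrays of low Xist, chosen after seeing the data, plaque-associated microglia differed by 0.11, homeostatic microglia by 0.14, Fc and Toll-like receptors by 0.16, cytokines by 0.10, reactive astrocytes by 0.32 and homeostatic astrocytes by 0.10. With the median of the genes of a list, ATF4 targets differed by -0.25 (-0.42 to -0.08), GABAergic genes by -0.11, cholinergic genes by 0.025, Fc and Toll-like receptors by -0.15 and cytokines by 0.11. Such a median rests on the middle-ranked genes of each mouse. Array weights gave the ATF4 targets -0.08, with an interval from -0.17 to -0.0018. The interval of the ATF4 targets contained 0 under 28 of 30 alternatives. Of 5486 values of single genes under alternatives, 1 turned the sign of a difference that had an unadjusted p under 0.05, that of H2-T23, at -0.020 with the filter at the 75th percentile. The cause of these moves was not tested. Genes below background and the size of 3 mice per group limit all of them.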

Other observations

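Further genes had an estimate beyond 1.6-fold between the transgenic groups, and they were named after their values were seen. Ctse, which encodes the protease cathepsin E, had log2 signals of 8.46, 9.03 and 9.25 in 5xFAD;eIF2α+/S51A mice, against 6.14, 6.71 and 8.56 in 5xFAD mice. The groups overlapped, with a difference of 1.78 (standard error 0.47, 95% interval 0.76 to 2.79, adjusted p = 0.9999, limma), the highest of all genes tested. In eIF2α+/S51A mice its signals lay between 4.81 and 5.79, against 5.20 to 5.48 in wild-type mice. Npl, an enzyme of sialic acid breakdown, had signals of 9.20, 9.19 and 7.75 in 5xFAD;eIF2α+/S51A mice, against 7.72, 7.77 and 7.63 in 5xFAD mice. Of the 3 mice with the allele 1 was within the range of 5xFAD mice, and 1 eIF2α+/S51A mouse, at 8.28, was also above the other mice without transgenes.

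Penk, the enkephalin precursor and a member of the list of neighbouring brain regions, was high in 2 of 3 mice with the allele, with signals of 9.39, 8.59 and 9.45 in 5xFAD;eIF2α+/S51A mice, against 7.67, 9.11 and 8.29 in 5xFAD mice, and the groups overlapped. Cnr2, the cannabinoid receptor of immune cells, read by 2 dim probe sets, had signals of 5.84, 4.98 and 5.90 in 5xFAD;eIF2α+/S51A mice, against 6.22, 6.79 and 6.01 in 5xFAD mice. It did not overlap, and its difference was -0.77 (-1.36 to -0.17, adjusted p = 0.9999, limma).

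Among the probe sets without a gene symbol, which the gene tests do not use, 0 of 907200 were called between the transgenic groups. Of these, 38447 had an unadjusted p under 0.05 (limma), which is 4.24%, against 3.83% of all probe sets with values. Dnaaf4, an assembly factor of motile cilia, was without overlap in both allele comparisons, at 0.37 with the transgenes and 0.30 without.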
